A study of Gossypium bickii with 18 samples.

Results

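Gene expression in the cotyledons of an Australian diploid cotton, Gossypium bickii, was compared at 48 h after imbibition under light and at 0 h, the start of the germination course. Imbibition is the uptake of water that starts germination, and cotyledons are the seed leaves of the embryo. The 48 h group had 3 libraries labelled as under light, and the 0 h group had 3 libraries for which the labels give no light condition, so germination time and light cannot be told apart here. No genotype beyond the species, no growth condition and no seed age is given. The labels call the replicates biological and do not name the plants or seed lots behind them, so the p-values measure only the spread between these samples.

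All gene IDs at 1 FPKM or more in at least 3 of these 6 libraries were taken. FPKM counts the sequenced fragments of a gene relative to its length and to the mapped fragments of the library, so it is a level per length. This gave 23849 genes of 43790 IDs in the time-course table and of 49301 IDs in the series. Just inside this limit, 6989 genes reached 1 FPKM in exactly 3 libraries, and just outside it 1223 IDs reached it in 2. The other libraries used were those at 12, 24 and 36 h under light, and those at 24 h in light and in dark, which have a table of their own, all in groups of 3.

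A dry seed holds messenger RNA stored during maturation, including that for storage proteins, oil bodies and protection against drying. After imbibition these transcripts are degraded while new ones are made, and cotyledons pass from using up reserves to greening and expansion. The series title names pigment glands, the cavities in which cottons hold gossypol and related terpenoids, and in G. bickii glands are known to appear in cotyledons only as the seed germinates. The files do not pair IDs with gene names, so genes are given by ID, no role is given to any of them, and the tissue label was not checked against marker genes.

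The 6 libraries held 99.3% to 99.7% of their summed FPKM in these genes. Within a group, log2 levels over the 23849 genes correlated at 0.956 to 0.976 at 48 h and at 0.967 to 0.987 at 0 h. Between the groups r was 0.255 to 0.346. The 23849 genes include 5933 that reached 1 FPKM in all 48 h libraries and in none at 0 h. The reverse held for 880, and including such genes favours a low r between the groups. The spread was wider at 48 h, with a median SD of 0.24 log2 units, than at 0 h, with 0.16 (n = 3 each). Replicate 3 at 48 h summed to 607425 FPKM, against 540941 and 545986 in the other 48 h libraries. One library at 0 h stood apart. A level at least 2 log2 units above those of both other 0 h libraries was found for 187 genes in 0 h replicate 2, for 13 in replicate 1 and for 2 in replicate 3. These 187 genes had a median of 10.9 FPKM in that library and 0.411 FPKM in the other two. Among the 4 later times, which did not enter this choice, 117 of the 187 (62.6%) had their highest mean at 12 h, against 28.0% of all 23849 genes. At 48 h against 0 h, 129 of the 187 (69.0%) were called higher and 4 (2.14%) lower, against 46.9% and 17.5% of all 23849 genes. This is a description, since 0 h replicate 2 is part of the contrast. Leaving it out changed the call of Gbi10G2885 alone among the genes named here. Its value is given with that gene, as are those of Gbi08G0141, Gbi01G0292 and Gbi10G0026, the called genes whose log2 difference moved most. What these 187 genes contribute to the other results was not tested.

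Between the ends of the course many genes differed. A gene was called when its log2 difference on log2(FPKM + 1) was at least 1 in size and its adjusted p was under 0.05 (limma, Benjamini-Hochberg over the 26086 genes tested in the table). At 48 h 11184 genes were called higher (46.9%) and 4178 lower (17.5%) than at 0 h. Over all genes tested, 60.4% were called, 44.1% higher and 16.2% lower. These shares include genes that passed the limit through 1 group alone. Of the 14335 genes at 1 FPKM or more in all 6 libraries, 49.1% were called. The median log2 difference was 0.85 for the 23849 genes and 0.74 for all 26086. In 13710 genes (57.5%) all 3 libraries at 48 h lay above all 3 at 0 h, and in 6122 (25.7%) all 3 lay below, against 56.2% and 24.2% of all genes tested. Without 0 h replicate 2 the calls were 11415 higher and 4106 lower. In bulk tissue, a lower level can reflect fewer cells of a type or less RNA per cell, and these cannot be told apart.

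**Figure D1:**
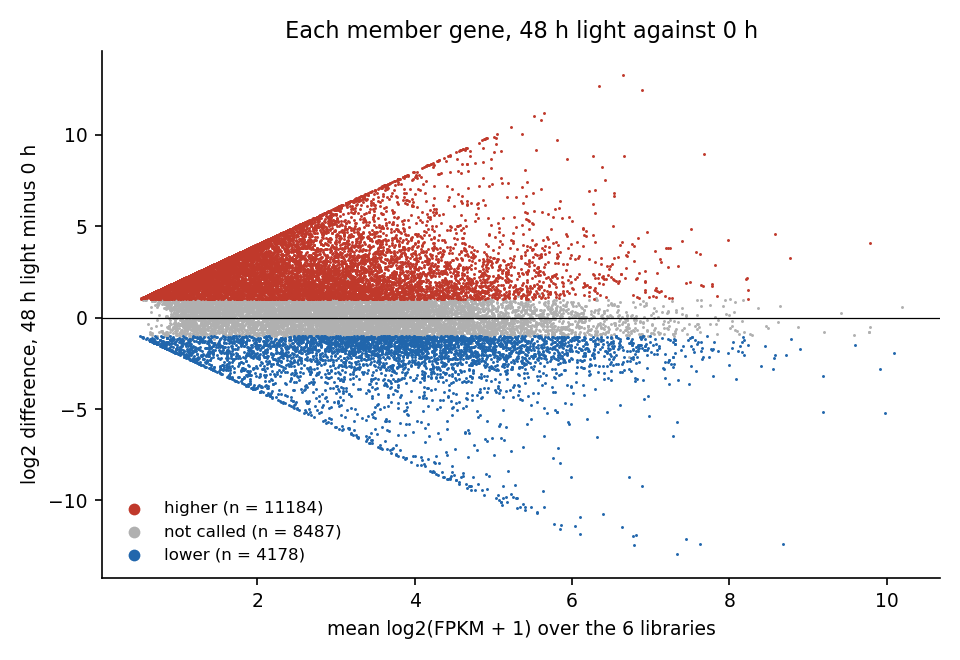
Log2 difference on log2(FPKM + 1), 48 h light minus 0 h, against the mean log2(FPKM + 1) over the 6 libraries, with 1 point per gene for the 23849 genes, coloured by call. Points at the left edge of each wing are genes near 0 FPKM in one group, many of them among the 5933 that reached 1 FPKM at 48 h alone, and the points of the 4178 genes called lower extend further to the right.

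The direction of modest changes depended on how the libraries were put on a common scale. Calls split 72.8% higher with FPKM as deposited and 74.4% after rescaling to TPM. The split was 61.3% after median-of-ratios scaling and turned to 49.1% after quantile normalization, where 6600 genes were called higher and 6849 lower. The median of the 23849 genes moved along, at 0.85, 1.01, 0.40 and -0.03 log2 units. Under all 4 scalings, 6423 genes were called higher and 4027 lower. These were 57.4% of the genes called higher and 96.4% of those called lower with FPKM as deposited. No gene had opposite calls in any of these scalings and in FPKM as deposited.

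**Figure D2:**
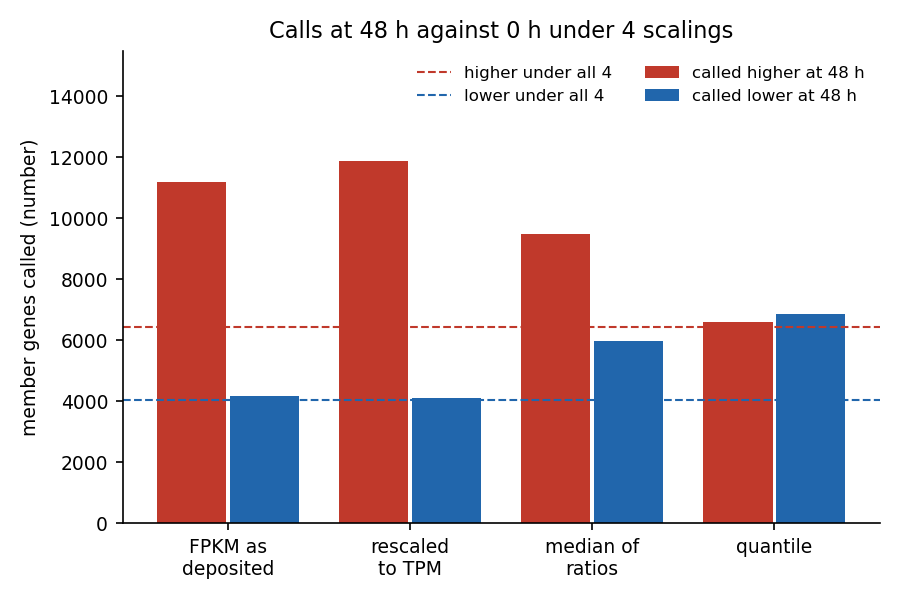
Number of the 23849 genes called higher and lower at 48 h than at 0 h under 4 scalings, with dashed lines at the 6423 genes called higher and the 4027 called lower under all 4. The bars for higher calls are tallest after rescaling to TPM (11892) and shortest after quantile normalization (6600). Those for lower calls are shortest after rescaling to TPM (4100) and tallest after quantile normalization (6849).

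Most of the excess of higher calls came from genes below 1 FPKM at 0 h. In 5933 genes all 3 libraries reached 1 FPKM at 48 h and none did at 0 h, and the reverse held for 880. These genes passed the limit through one group alone and so had to differ, which leaves nothing to read from their calls. A further 14335 genes reached 1 FPKM in all 6 libraries, and of these 4067 (28.4%) were called higher, 2966 (20.7%) lower and 7302 neither. Under all 4 scalings 2099 of them were higher and 2817 lower. In these genes the direction turned with the scaling, since median-of-ratios scaling left 2715 higher and 4618 lower, and quantile normalization left 2276 higher and 5133 lower. Large changes among the 14335 were uncommon: 226 were at least 16-fold higher and 119 at least 16-fold lower, while 36 and 19 passed 64-fold, with folds taken on FPKM + 1.

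Among the most highly expressed genes more were called lower than higher. Since genes that passed the limit through one group alone fill much of the low range, level was examined in the 14335 genes measured in all 6 libraries, a choice made after seeing the data. Of the 781 with a mean log2(FPKM + 1) of 6 or more over the 6 libraries, 17.9% were called higher and 40.7% lower with FPKM as deposited, and lower calls were also the more frequent under the other 3 scalings (37.8% to 57.5%, against 14.2% to 19.2% higher). For the 8249 genes with a mean between 2 and 4 the direction turned with the scaling, at 32.3% higher and 15.8% lower with FPKM as deposited and 21.5% and 26.3% after median-of-ratios scaling. Only 9 genes were among the 100 highest of both groups. The 100 genes highest at 48 h took 19.8% of summed FPKM at 48 h and 2.08% at 0 h, and the 100 highest at 0 h took 1.79% at 48 h and 36.1% at 0 h. Choosing genes for a high level in one group favours this direction.

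Of the genes that could be measured in every library, Gbi09G3040 and Gbi03G2666 had the largest rise. Gbi09G3040 stood at 2624, 4838 and 7350.2 FPKM at 48 h, against 14.7, 4.20 and 8.54 FPKM at 0 h. All 48 h libraries lay far above the 0 h ones, and the log2 difference was 8.94 (SE 0.42, adjusted p = 8.03e-11, limma). At 12 h its mean was 1632 FPKM, at 24 h it was 3987 FPKM and by 36 h it had reached 4380.2 FPKM, so on the log2 scale most of its rise preceded 12 h. In the light-dark table this gene was listed at 0 in all 6 libraries. Of the 14202 genes at 5 FPKM or more at 24 h in the time course, 128 were listed at 0 in all 24 h light libraries of the other table, so levels of such genes depend on how each table was made.

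Gbi03G2666 rose late. It held 2102, 1686 and 1255 FPKM at 48 h, against 2.76, 4.15 and 1.34 FPKM at 0 h, and the log2 difference was 8.85 (SE 0.37, adjusted p = 2.73e-11, limma). At 12 h its mean was 7.80 FPKM, and by 24 h and 36 h this had reached 65.4 and 166 FPKM. At 24 h it was also higher in light than in dark, with 65.8, 116 and 58.0 FPKM in light and 15.4, 26.9 and 15.3 FPKM in dark. These libraries did not overlap, and the log2 difference was 1.99 (SE 0.31, adjusted p = 0.0181, limma).

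Among genes at 1 FPKM or more in all 6 libraries, the largest falls were those of Gbi10G0039 and Gbi03G0425. Gbi10G0039, the gene with the highest mean at 0 h, had 1.57, 6.75 and 8.03 FPKM at 48 h, against 28721, 36662 and 25005 FPKM at 0 h. The log2 difference was -12.36 (SE 0.40, adjusted p = 2.58e-12, limma). Its mean, lower at each step, was 659 FPKM after 12 h, 162 FPKM after 24 h and 54.1 FPKM after 36 h. Gbi03G0425 held 1.12, 1.93 and 1.86 FPKM at 48 h, against 14842, 8929.6 and 11829 FPKM at 0 h, a log2 difference of -12.12 (SE 0.29, adjusted p = 2.83e-13, limma). On the log2 scale most of its fall came before 12 h, when its mean was 57.9 FPKM, and the means at 24 h and 36 h were 16.5 and 6.74 FPKM. All 4 genes kept their call under every scaling and without any single library of these groups.

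**Figure D3:**
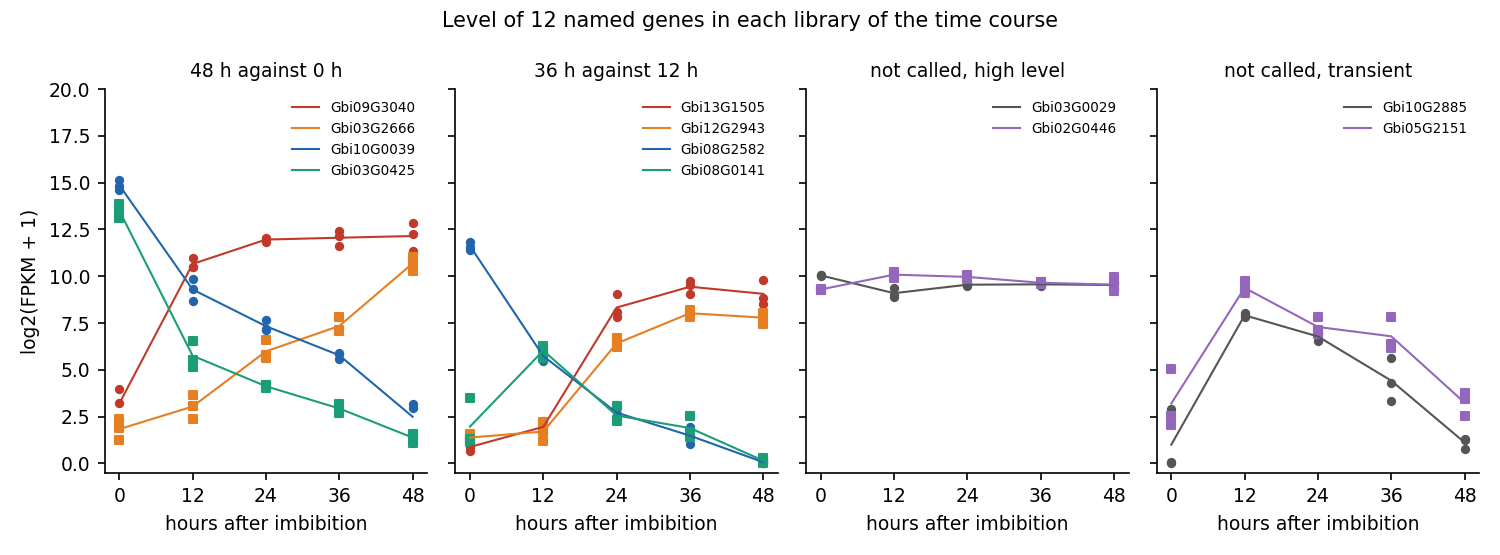
Level on log2(FPKM + 1) of 12 named genes in each library from 0 to 48 h after imbibition, with points for libraries (n = 3 per time) and lines through the means. From left to right, the first panels show large changes at 48 h against 0 h and at 36 h against 12 h. They are the largest among called genes at 1 FPKM or more in every library compared, with no overlap. The other panels show high genes not called, and genes that rose and fell between the ends, such as Gbi10G2885 at 241 FPKM at 12 h.

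Many genes were listed at 0 in one group. For 1981 genes the means at 48 h ran from 1.05 to 10251 FPKM with a median of 4.83, 79 of them at 100 FPKM or more, while all 3 libraries at 0 h were listed at 0. Of these, 451 stayed under 1 FPKM in all 9 libraries from 12 to 36 h. At 48 h, 209 genes were listed at 0 in all 3 libraries, and at 0 h their means ran from 1.04 to 1213 FPKM, 23 of them at 100 FPKM or more. A listed 0 can be a failed estimate, and no fold of a single such gene is given. The counts of genes past 64-fold by ID number, on FPKM + 1, do include such genes.

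The summed levels of the called genes were followed over the course. From 0 to 48 h in steps of 12 h, the share of summed FPKM in genes called higher was 5.68% ± 0.863, 39.5% ± 1.26, 42.6% ± 0.506, 45.2% ± 0.977 and 67.0% ± 3.35 (mean ± SD over 3 libraries each). Genes called lower held 70.2% ± 2.07, 23.2% ± 0.579, 21.8% ± 0.331, 20.2% ± 0.607 and 8.52% ± 1.31 at the same times. The genes not called held 23.9% ± 1.99 at 48 h and 23.7% ± 1.30 at 0 h, but 36.0% ± 0.816 at 12 h. The shares at 0 h and 48 h follow from the calls, and this choice of genes favours large steps next to the ends. No timing is therefore read from those steps. The shares at 12, 24 and 36 h come from libraries that did not define the contrast. Those libraries did enter the estimate of spread behind the calls.

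**Figure D4:**
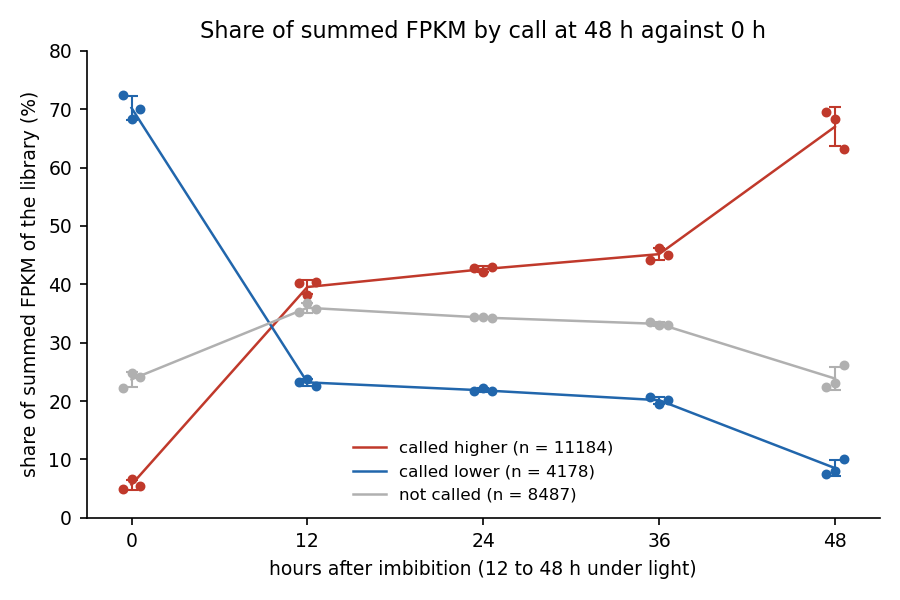
Share of the summed FPKM of each library, in percent, held by genes called higher, called lower and not called at 48 h against 0 h, from 0 to 48 h after imbibition. Points are libraries and bars are the mean ± SD (n = 3); the share of genes called higher is nearly level between 12 h and 36 h, at 39.5% to 45.2%.

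Timing differed from gene to gene. For each called gene, the first time was taken at which its mean log2 level had passed the midpoint between the 0 h and 48 h means. Of the genes called higher, 5291 (47.3%) passed it by 12 h, 2185 first at 24 h, 1252 at 36 h and 2456 (22.0%) only at 48 h. Of those called lower, 2351 (56.3%) passed it by 12 h, 414 first at 24 h, 299 at 36 h and 1114 (26.7%) only at 48 h. Counted over genes with the same call under all 4 scalings, 43.0% of the higher and 56.6% of the lower ones had passed by 12 h. Both ends enter the midpoint, so these counts describe the path and are not a test.

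The comparison of 36 h with 12 h shares no library with that of 48 h with 0 h, and it moved the same way for many genes. Both comparisons come from a fit of all 5 times together, so their calls share an estimate of the spread of each gene. Of the 11184 genes higher at 48 h, 3399 (30.4%) rose from 12 to 36 h and 305 (2.73%) fell. Of the 4178 genes lower at 48 h, 73 (1.75%) rose and 451 (10.8%) fell. Over all genes tested, 15.7% rose and 4.95% fell in this step. Seen the other way, 89.2% of the 3809 genes that rose from 12 to 36 h were higher at 48 h than at 0 h, while of the 1102 that fell 40.9% were lower and 27.7% were higher. Of all 23849 genes 46.9% were higher and 17.5% lower at 48 h, and of all genes tested 44.1% and 16.2%. The median log2 difference at 36 h against 12 h was 0.52 for genes higher at 48 h, -0.26 for those lower and 0.08 for all genes tested. These shares carry no p, since genes do not vary independently of each other.

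Among genes called at 48 h against 0 h and at 1 FPKM or more in all 12 h and 36 h libraries, Gbi13G1505 had the largest rise in that step. It held 867, 738 and 522 FPKM at 36 h against 2.92, 3.86 and 2.06 FPKM at 12 h (log2 difference 7.48, SE 0.35, adjusted p = 2.22e-09, limma). At 48 h it held 456, 371 and 894 FPKM, against 1.09, 0.594 and 0.871 FPKM at 0 h. Gbi12G2943 followed, with 227, 290.4 and 264 FPKM at 36 h against 2.28, 3.57 and 1.32 FPKM at 12 h (log2 difference 6.32, SE 0.23, adjusted p = 5.04e-10, limma). At 48 h it held 228, 176 and 266 FPKM, against 1.49, 2.01 and 1.38 FPKM at 0 h. In Gbi12G2943 the 12 h and 0 h libraries overlapped, while in Gbi13G1505 all 12 h libraries lay above those at 0 h. In both genes the 36 h and 48 h libraries overlapped. Gbi08G2582 had 1.74, 1.07 and 2.85 FPKM at 36 h, against 60.3, 55.0 and 43.0 FPKM at 12 h (log2 difference -4.25, SE 0.23, adjusted p = 1.04e-08, limma). Its level was 0, 0.154 and 0 FPKM at 48 h, against 3690.1, 3046 and 2744 FPKM at 0 h.

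Gbi08G0141 took another path to a lower level. It had 1.70, 2.23 and 4.87 FPKM at 36 h against 76.9, 48.6 and 71.3 FPKM at 12 h (log2 difference -4.14, SE 0.49, adjusted p = 1.26e-05, limma). Its 12 h level was itself far above that at 0 h, where the libraries held 1.19, 10.2 and 1.46 FPKM. At 48 h it stood at 0.221, 0 and 0.122 FPKM, a log2 difference of -1.82 from 0 h (SE 0.49, adjusted p = 0.00344, limma). The high 0 h value was that of replicate 2, and without it the difference was -1.06 (adjusted p = 0.00839).

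Other genes also changed in passing. In 2169 of the 23849 genes (9.09%) the level at 12, 24 or 36 h was called higher than at both 0 h and 48 h, and in 784 (3.29%) it was called lower than at both. Over all genes tested the shares were 11.5% and 3.01%. Of the genes higher on the way, 1115 had the highest of these 3 means at 12 h, while 496 had it at 24 h and 558 at 36 h. Of those lower on the way, 559 had the lowest mean at 12 h. Among the 8487 genes not called at 48 h against 0 h, 999 were higher and 491 lower on the way.

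Gbi10G2885 and Gbi05G2151 showed this most strongly among genes not called. Gbi10G2885 held 0.0156, 6.60 and 0.0459 FPKM at 0 h, 241, 224 and 258 FPKM at 12 h, 115, 125 and 90.5 FPKM at 24 h, 18.8, 8.93 and 49.0 FPKM at 36 h and 0.735, 1.37 and 1.52 FPKM at 48 h. Gbi05G2151 held 4.72, 32.2 and 3.12 FPKM at 0 h, 622, 554 and 853 FPKM at 12 h and 4.75, 12.6 and 9.96 FPKM at 48 h. In both genes 0 h replicate 2 was the highest of its group. Their log2 differences at 48 h against 0 h were 0.12 (95% interval -1.26 to 1.5) and 0.04 (-1.33 to 1.42). Without 0 h replicate 2, Gbi10G2885 was called higher at 48 h (log2 difference 1.08, adjusted p = 0.0422, limma).

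Of the 8487 genes not called, 4364 had an adjusted p under 0.05 (limma) and missed a call only by the size of the log2 difference. For 4811 of the 8487 genes, the 95% interval of the log2 difference lay within -1 and 1. The other 3676 could not be placed on either side. Over all genes tested, 11.5% were higher and 3.01% lower on the way. Of the 4811, 540 were higher and 302 lower, so a like level at both ends was not always a level course. The highest of these genes was Gbi03G0029, at 648, 766 and 814 FPKM at 48 h, against 1067, 1027 and 1076 FPKM at 0 h. The groups did not overlap, and its log2 difference was -0.51 (interval -0.93 to -0.10), which became -1.09 and a call after median-of-ratios scaling. With quantile normalization it was 0.17. Gbi02G0446 stood at 598, 699.7 and 1005 FPKM at 48 h, against 623, 645 and 611 FPKM at 0 h, and the groups overlapped (log2 difference 0.26, interval -0.21 to 0.73).

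The light and dark libraries at 24 h give a readout that shares no library with either end. The 24 h light samples are also in the time course, where they entered the estimate of spread. Of the genes called higher at 48 h, 9065 were tested there, and 388 (4.28%) were higher and 74 (0.816%) lower in light than in dark. Of the genes called lower at 48 h, 3363 were tested, and 81 (2.41%) were higher and 15 (0.446%) lower in light. Of the genes not called, 7523 were tested, and 69 (0.917%) were higher and 23 (0.306%) lower. Over all 23059 genes tested in that table, 2.55% were higher and 0.607% lower in light. The median log2 difference of light against dark was 0.19, 0.05 and 0.14 in these classes and 0.13 over all genes tested.

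The light counts rested on every library. Over all genes tested for light against dark, 3.15% were called either way, 2.55% higher and 0.607% lower in light. Of the 23849 genes 19951 were tested there, and 2.70% were higher and 0.561% lower. That made 650 calls either way. Leaving out dark replicate 1, 2 or 3 changed this count to 310, 207 or 1957, and leaving out light replicate 1, 2 or 3 changed it to 305, 329 or 245. Without dark replicate 3 the shares higher in light were 10.4% of genes higher at 48 h, 5.35% of those lower and 6.37% of those not called, so the order of the last 2 classes changed.

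**Figure D5:**
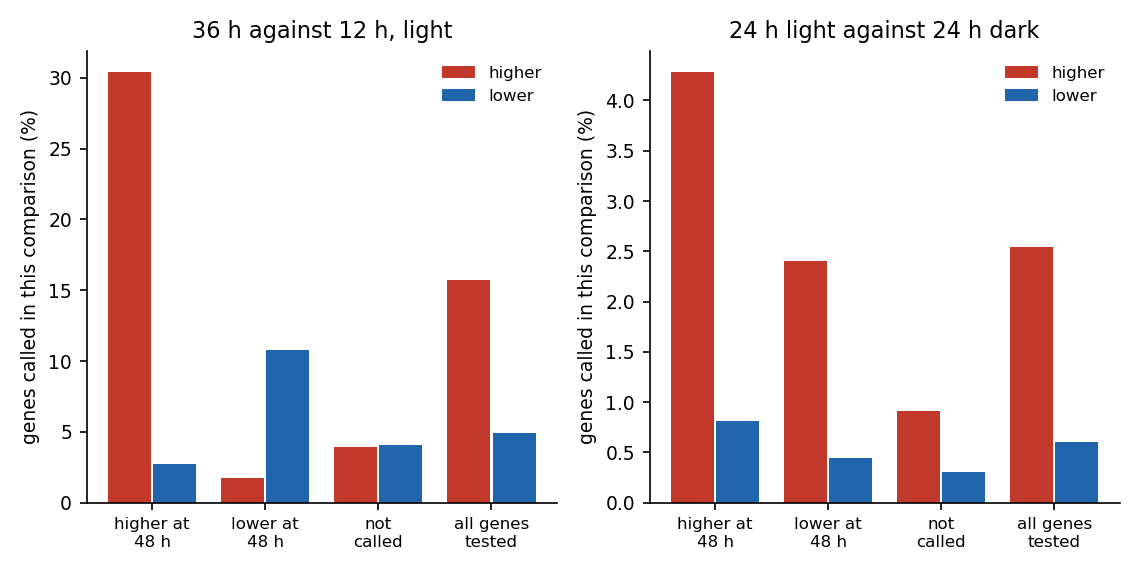
Percent of genes called higher and lower at 36 h against 12 h (left) and at 24 h in light against dark (right), for genes called higher, lower and not called at 48 h against 0 h, and for all genes tested. Of the genes higher at 48 h, 30.4% rose from 12 to 36 h and 4.28% were higher in light, the tallest bar in each panel; the vertical scales differ.

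Among genes that rose by 48 h and reached 1 FPKM in all 24 h light and dark libraries, Gbi05G2531 had the largest rise in light. It held 114, 113 and 115 FPKM in light against 5.38, 7.91 and 5.46 FPKM in dark (log2 difference 4.01, SE 0.16, adjusted p = 0.000163, limma). At 48 h it stood at 95.9, 108 and 146 FPKM, against 7.78, 8.34 and 7.45 FPKM at 0 h in the other table. The tables are not on one scale: at 24 h in light this gene averaged 114 FPKM in the light-dark table and 78.8 FPKM in the time course, so its dark level is not set against that at 0 h. Its log2 difference at 48 h against 0 h was 3.71 (SE 0.20, adjusted p = 3.35e-10, limma).

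Gbi10G0026 was higher in light yet lower at 48 h. It held 230.2, 269 and 239 FPKM in light against 29.5, 8.92 and 22.5 FPKM in dark (log2 difference 3.68, SE 0.37, adjusted p = 0.00372, limma). At 48 h it had 5.73, 4.59 and 6.11 FPKM, against 408, 53.9 and 99.2 FPKM at 0 h (log2 difference -4.35, SE 0.59, adjusted p = 8.49e-06, limma). Its 0 h libraries differed widely, with replicate 1 the highest. Without 0 h replicate 1 the difference was -3.52, and without 0 h replicate 2 it was -4.97.

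Gbi11G2191 and Gbi01G0292 went the other way, lower in light and higher at 48 h. Gbi11G2191 held 15.2, 22.7 and 17.3 FPKM in light against 106, 74.0 and 47.0 FPKM in dark (log2 difference -1.93, SE 0.29, adjusted p = 0.0166, limma), and it stood at 20.4, 37.1 and 19.6 FPKM at 48 h against 1.52, 1.90 and 0.711 FPKM at 0 h. Its light call was lost without dark replicate 2 (adjusted p = 0.0761), light replicate 1 (0.0621) or light replicate 3 (0.0680). Gbi01G0292 held 83.6, 101 and 117 FPKM in light against 383, 362 and 319 FPKM in dark (log2 difference -1.82, SE 0.16, adjusted p = 0.0023, limma). At 48 h it had 18.3, 37.7 and 38.9 FPKM, against 0, 27.0 and 0 FPKM at 0 h, where replicate 2 again stood apart. That log2 difference was 3.35 (SE 0.89, adjusted p = 0.00315, limma) and 4.96 without that library, and the call was lost in a fit of these 6 libraries alone (adjusted p = 0.0514).

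The calls were spread over the ID groups. IDs carry a number from Gbi01 to Gbi13 or belong to a remaining group of 419 genes. The share called higher ran from 45.1% (Gbi08) to 49.6% (Gbi02) and the share called lower from 15.5% (Gbi07) to 19.3% (Gbi13), against 43.7% and 13.8% in the remaining group. Genes with large changes stood next to each other in ID number more often than genes at large, though few genes were involved. Of 318 numbered genes at least 64-fold higher at 48 h on FPKM + 1, 17 (5.35%) had the next or the previous ID in the same set, against 1.65% of all 23430 numbered genes. Of 176 genes at least 64-fold lower, 17 (9.66%) did, against 0.982%. At 2-fold the shares were closer, at 53.7% against 49.2% for higher and 30.1% against 21.6% for lower genes. With the remaining group included, 326 genes passed 64-fold higher and 178 lower, of which 36 and 19 reached 1 FPKM in all 6 libraries. The others include genes that passed the limit through 1 group alone. What such genes contribute to these shares was not tested. For neighbouring genes with similar sequences, reads may be split between copies, so their separate levels are uncertain.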

How the data were processed

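RNA from cotyledons was sequenced paired-end after library preparation with the NEBNext Ultra kit, per the labels' protocols. The submitters' processing notes list Trimmomatic 0.36, HISAT2 2.0.4 and HTSeq 0.6.0 but no parameters, and a genome build, an annotation or a strand setting is not given in the sources used. The values are FPKM as deposited by the authors, in 2 tables made separately, per the file headers, and tests were run within a table only. All 21 columns of library values were used.

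The 24 h columns of the time course name no light condition. They were taken as light, as every other imbibed column of that table is a light sample. Their replicate deviations correlated at 0.851 to 0.857 with same-numbered light columns of the other table and at -0.108 to 0.117 with dark ones.

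Depth is unknown for the time course. Among 3103 genes under 0.5 FPKM in replicates 1 and 2 at 0 h, the most frequent ratio (log2, to 3 decimals) occurred in 6 genes, against 327 of 2802 in dark replicates 1 and 2, so whole-fragment steps were seen only in the light-dark table.

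Log2(FPKM + 1) was tested with limma 3.58.1 in R 4.3.3, with group means, a mean-variance trend and two-sided Benjamini-Hochberg adjustment over genes at 1 FPKM or more in at least 3 libraries of the table (26086 and 23059). The 5 times were fitted together. Genes were called at an adjusted p under 0.05 and an absolute log2 difference of at least 1. Differences on this scale understate changes of low genes. The steps were run on simulated data in which a small set of well expressed genes was changed. That run does not address low genes or the choice of scaling. Samples were grouped by their titles.

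Genes named were the 2 with the largest log2 difference in each direction among called genes at 1 FPKM or more in every library compared, with no overlap and a higher mean of at least 10 FPKM. Those for 36 h against 12 h and light against dark also had a call at 48 h against 0 h. The 2 highest genes with an interval within -1 and 1 and the 2 largest transient ones were added. The genes, rules and lists were chosen with earlier results of these data known. Symbol lists written for storage, photosynthesis and gland genes matched no ID and were not used. Alternatives covered pseudocount, filter, scaling, fold minimum, libraries fitted and replicate block. Counts over genes measured in all 6 libraries were added after seeing the data.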

Additional observations from a re-analysis of the deposited data

How the results depend on the processing

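Depth is unknown in the time course, which limits what can be said of low genes. The 15362 calls at 48 h against 0 h stayed within 1.5 times under all settings run except a log2 difference of at least 2 (8079). The share of higher calls was 69.5% with a filter at 5 FPKM, 61.3% after median-of-ratios scaling, 49.1% after quantile normalization, 74.4% after rescaling to TPM, 69.1% with no fold minimum and 78.5% with a log2 difference of at least 2. Where only genes measured in all 6 libraries were counted, the 7033 calls became 10808 with no fold minimum and 2740 with a log2 difference of at least 2. Those settings gave 10525 and 1381 calls for 36 h against 12 h (4911 as reported), 6743 and 756 transient genes (2952 as reported) and 1009 and 84 calls for light against dark (650 as reported), as fewer or more genes pass a fold minimum. Light against dark gave 279 calls with no filter, and the cause was not tested. With no filter, genes at 0 in every library of a table were left out.

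Leaving out each library gave 15230 to 15521 calls at 48 h against 0 h, 70.5% to 74.2% higher calls, 6944 to 7221 calls among genes measured in all 6 libraries, 4546 to 5415 calls for 36 h against 12 h, 2844 to 3047 transient genes and 207 to 1957 calls for light against dark. For light against dark the cause was not tested.

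Among genes not called, the sign at 48 h against 0 h turned after median-of-ratios scaling for Gbi02G0446 (-0.31), Gbi10G2885 (-0.075) and Gbi05G2151 (-0.46), and after quantile normalization for Gbi03G0029 (0.17), Gbi10G2885 (-0.99) and Gbi05G2151 (-0.75). Leaving out each library gave -0.37 to 1.08 for Gbi10G2885 and -0.54 to 0.97 for Gbi05G2151. The cause was not tested.

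Same-numbered libraries were not paired by the labels, and the correlations of their deviations ran from -0.0912 to 0.197, not all above 0.1 in any comparison. Every 36 h library correlated best with the 12 h library of its own number, a hint from the data only. With the replicate block the counts were 15358 calls at 48 h against 0 h (72.8% higher), 7032 among genes measured in all 6 libraries, 4900 for 36 h against 12 h, 2952 transient genes and 640 for light against dark.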
